A study of Mus musculus with 20 samples.

Results

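The acute phase response and the inflammatory signals that drive it were followed through 34 genes in the livers of mice on a high-fat diet with and without a maple syrup extract. The genes were listed by their role, and each was found through probe sets that the platform's gene table assigns to exactly 1 symbol. All 34 were measured, out of 18193 genes on the array with such a probe set. They were read by 64 probe sets in all, and 14 of the genes had several. Of the 34, 19 encode secreted acute phase proteins, and 15 encode cytokines, chemokines, receptors, transcription factors and feedback or responsive proteins.

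The acute phase response is the change in plasma proteins that hepatocytes make when tissue is injured or infected. Interleukin-6 acts through its receptor and the shared chain gp130 to activate STAT3, while interleukin-1 and TNF act through NF-kB, and both routes work with C/EBP transcription factors on the promoters of the secreted proteins. SOCS3 and IkB-alpha shut the STAT3 and NF-kB routes down again, so their transcripts are commonly used as readouts of recent signalling.

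Both groups were male C57BL/6J mice, 8 weeks old at sampling, bought at 3 weeks and given a low-fat diet for acclimation, with 10 mice in each group. For 4 weeks they ate a diet with 45 kcal% fat, either alone (HFD) or with 0.02% of the extract that the labels call MSXH, and livers were taken after a 16 h fast. Total liver RNA was hybridised to Affymetrix 3' arrays, with 1 array for each mouse, so that p-values measure the spread between mice. The series text also names a low-fat group and a group with more extract, which were not analysed here, so no value below says how far the high-fat diet itself moved these genes.

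The deposited values lay between 5.17 and 15.01 on a log scale whose base is not stated, and the 20 array medians lay between 6.5216 and 6.5226. Their spread was strongly compressed, with a median SD of 1.07e-05 per probe set, so differences are given as standardized differences and not as folds. A standardized difference is the MSXH mean minus the HFD mean, divided by the SD within groups, and the distance of a mouse is its level minus the HFD mean in the same unit. The livers of MSXH 4 and MSXH 6 carried muscle transcripts. Measured in the same unit, but from the mean of all 20 mice, the 12 muscle markers averaged 3.49 in the former and 1.44 in the latter. This average was at most -0.02 in the other 18 mice. Several results that move without these 2 mice are given both ways, but not all of them. Liver is a mixture of cells, and fewer cells of a type cannot be told apart from less RNA per cell in these data.

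The promoters below belong to the genes whose levels went together from mouse to mouse, in the pairs that passed the threshold given further below. They are marked for the letters that the transcription factors of this response are known to bind. Each is the 250 bases upstream of a transcription start, from RefSeq on build GRCm38.p6, written 5′ to 3′ along the gene. Capitals mark any match on either strand to TTGCNNAA (C/EBP), TTCNNNGAA (STAT) or the NF-kB letters, which are GGG, 5 bases of any kind and CC. Saa1 lies at chr7:46742981-46743230 on the minus strand, Saa2 at chr7:46751583-46751832 on the plus strand and Saa3 at chr7:46715677-46715926 on the minus strand. Orm2 lies at chr4:63362199-63362448 (plus), Lcn2 at chr2:32387740-32387989 (minus), Socs3 at chr11:117969367-117969616 (minus) and Steap4 at chr5:7960222-7960471 (plus).
Saa1: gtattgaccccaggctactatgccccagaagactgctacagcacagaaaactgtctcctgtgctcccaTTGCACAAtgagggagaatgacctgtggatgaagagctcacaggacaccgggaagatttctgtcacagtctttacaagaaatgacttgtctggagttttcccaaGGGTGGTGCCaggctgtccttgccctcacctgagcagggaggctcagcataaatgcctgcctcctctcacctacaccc
Saa2: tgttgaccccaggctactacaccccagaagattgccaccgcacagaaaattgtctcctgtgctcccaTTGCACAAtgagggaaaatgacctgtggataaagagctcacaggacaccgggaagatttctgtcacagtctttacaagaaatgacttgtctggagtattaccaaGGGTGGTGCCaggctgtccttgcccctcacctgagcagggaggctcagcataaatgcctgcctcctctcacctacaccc
Saa3: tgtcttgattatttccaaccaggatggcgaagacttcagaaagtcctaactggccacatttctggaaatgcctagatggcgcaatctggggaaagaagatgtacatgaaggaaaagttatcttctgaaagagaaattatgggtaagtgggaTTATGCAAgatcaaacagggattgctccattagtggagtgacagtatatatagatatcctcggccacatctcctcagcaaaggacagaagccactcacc
Orm2: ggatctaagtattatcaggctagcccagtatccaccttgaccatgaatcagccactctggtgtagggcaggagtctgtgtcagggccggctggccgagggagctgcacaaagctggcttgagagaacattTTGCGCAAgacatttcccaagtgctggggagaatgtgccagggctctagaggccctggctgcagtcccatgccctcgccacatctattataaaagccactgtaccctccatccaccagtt
Lcn2: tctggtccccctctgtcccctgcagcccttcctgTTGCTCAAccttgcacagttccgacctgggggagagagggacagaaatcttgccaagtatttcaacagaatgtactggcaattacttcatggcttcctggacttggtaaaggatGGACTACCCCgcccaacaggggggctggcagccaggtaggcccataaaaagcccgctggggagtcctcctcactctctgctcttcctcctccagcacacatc
Socs3: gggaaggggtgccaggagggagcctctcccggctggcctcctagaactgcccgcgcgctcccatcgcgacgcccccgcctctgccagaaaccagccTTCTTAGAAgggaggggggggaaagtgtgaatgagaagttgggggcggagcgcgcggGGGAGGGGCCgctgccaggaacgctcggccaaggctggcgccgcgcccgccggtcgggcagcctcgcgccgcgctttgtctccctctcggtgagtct
Steap4: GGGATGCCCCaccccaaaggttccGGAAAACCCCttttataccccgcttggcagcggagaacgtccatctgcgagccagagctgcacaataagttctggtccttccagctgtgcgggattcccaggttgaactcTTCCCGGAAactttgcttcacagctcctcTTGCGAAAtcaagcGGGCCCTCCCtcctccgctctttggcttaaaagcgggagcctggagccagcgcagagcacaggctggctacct

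The neighbours Saa1 and Saa2 were identical in 238 of 251 aligned columns of these upstream bases (94.8%), and each holds a single C/EBP match, which starts at -182 and at -183 relative to the transcription start. Saa3 shared 52.2% of the aligned columns with Saa1, no more than Lcn2 (53.5%) and Orm2 (54.5%), which are of other families. The C/EBP match of Saa3 starts at -99. The match of Orm2 starts at -120 and that of Lcn2 at -216. Of the 29 genes with a promoter in the table, TTGCNNAA was present in 10 of 16 secreted proteins and in 3 of 13 signalling genes, against 9.56% of all 32851 promoters of the same length. TTCNNNGAA was present in 2 of 16 and 3 of 13 (7.02% of all promoters), among them Socs3 and Steap4. The NF-kB letters were present in 8 of 16 and 10 of 13, against 45.8% of all promoters. A gene counted when any of its windows matched (Cp, Il1r1 and Il1rn have several), while the shares of all promoters are per window. Close paralogs also counted separately. The C/EBP matches of the secreted proteins include Saa1 and Saa2 as well as Orm2 and Orm3, which were identical in 85.9% of columns. The contrast with all promoters is thus only rough. These counts describe letters in a window and say nothing of binding in these livers.

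Setting MSXH against HFD addresses the effect of the extract on the liver under a high-fat diet. None of the 34 genes passed a limma adjusted p of 0.05, as 0% of all genes did, and their smallest adjusted p was 0.412. At an unadjusted p under 0.05 there were 2 of 34, Nfkbia and Tnf, both lower in MSXH, against 10.9% of all genes, 4.31% lower. Both groups overlapped in every one of the 34 genes, while 0.022% of all genes did not overlap. The MSXH mean was the higher one for 11 of 19 secreted proteins and 7 of 15 signalling genes, against 54.7% of all genes. The median standardized difference was 0.04 for the secreted proteins, -0.05 for the signalling genes and 0.07 for all genes. The rank sum test called 4 of the 18193 genes at an adjusted p of 0.05 and none of the 34. At an unadjusted p under 0.05 it gave 1 of the 34, Nfkbia, against 9.33% of all genes.

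These counts moved with the scaling of the arrays, as did those of all genes. When arrays were centred on their medians, 3 of 19 secreted proteins and 0 of 15 signalling genes were higher in MSXH, against 2.75% of all genes, and the medians were -0.54, -0.64 and, for all genes, -0.66. After quantile normalization the counts were 3 of 14 with a value and 0 of 15, against 7.14% of all genes with a value. Each scaling left 1 of the 34 at an unadjusted p under 0.05, Nfkbia with centring (1.15% of all genes) and Serpina3n with quantile normalization (4.11% of all genes), both lower. Without MSXH 4 and 6 the counts higher were 13 of 19 and 7 of 15 (54.6% of all genes), and 4 of the 34 had an unadjusted p under 0.05 (10.3% of all genes), namely Saa3 and Il1rn higher and Tnf and Nfkbia lower. Without these mice and with quantile normalization 8 of 12 with a value and 5 of 15 were higher (56.1% of all genes with a value), and with centring 11 of 19 and 6 of 15 (42% of all genes). In both cases 2 of the 34 had an unadjusted p under 0.05, Saa3 and Cxcl1 with quantile normalization (11.6% of all genes) and Saa3 and Nfkbia with centring (1.96% of all genes).

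**Figure D1:**
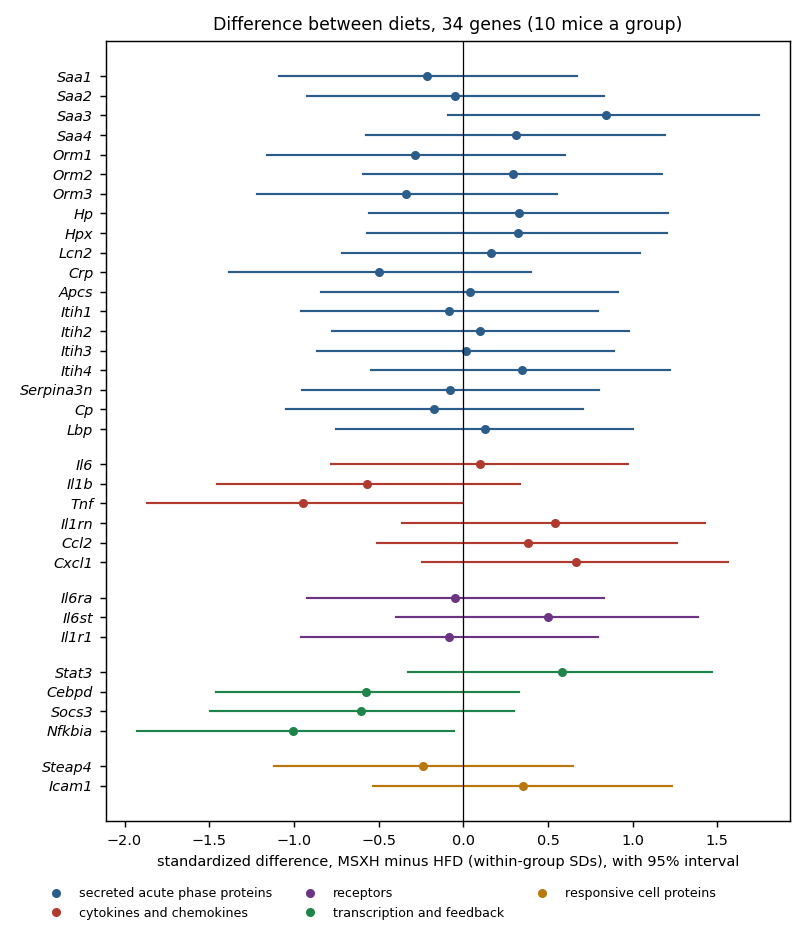
Standardized difference (MSXH minus HFD, in SDs within groups, x axis) of each of the 34 genes with its 95% interval, 10 mice a group, coloured by role. Only the intervals of Nfkbia and Tnf leave out 0, both on the lower side, and neither gene passed the adjusted p.

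The serum amyloid A proteins bind high-density lipoprotein and are among the most inducible acute phase proteins. Saa1 (probe set 1419075_s_at) ran from 9.332 over a median of 9.351 to 9.432 in HFD and from 9.314 over 9.352 to 9.404 in MSXH. The medians nearly coincided, and both ends of the range were single mice, HFD 6 at the top and MSXH 4 at the bottom. The standardized difference of Saa1 was -0.21 (95% interval -1.09 to 0.67), which turned to 0.05 without HFD 6 and to 0.10 without MSXH 4 and 6. Saa2 (1449326_x_at) ran from 7.925 over 7.944 to 8.010 in HFD and from 7.910 over 7.944 to 7.995 in MSXH. It had the same mice at its ends and a difference of -0.05 (-0.92 to 0.83), or 0.24 without HFD 6 and 0.28 without MSXH 4 and 6. The platform table gives the same accession to both probe sets, whose suffixes mark probes that can bind related transcripts, so Saa1 and Saa2 are uncertain as separate readings. A further Saa1 probe set stood at -0.26.

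Saa3, the serum amyloid A that is also made outside hepatocytes, had the third smallest p of the 34. Its distances ran from -1.05 over 0.29 to 0.65 in HFD and from -0.85 over 0.39 to 3.28 in MSXH. The highest mice were MSXH 7 and MSXH 8, at 3.28 and 2.65, and the other 8 MSXH mice reached at most 1.11. This gave a standardized difference of 0.84 (-0.09 to 1.75), with a limma p of 0.0710 (adjusted 0.509), and MSXH was higher in 65 of 100 pairs of mice. It was 0.70 without MSXH 7 and 1.24 (p 0.0163) without MSXH 4 and 6, and it was above 0 under both scalings. Saa4, which is made constitutively, stood at 0.31 (-0.58 to 1.19).

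The orosomucoids, small glycoproteins that carry lipids and drugs in plasma, stood on both sides of 0. Orm1 had a standardized difference of -0.28, Orm2 of 0.30 and Orm3 of -0.34. Orm2 was lowest in MSXH 6 and MSXH 4, and its difference was 0.77 without them. The scavengers haptoglobin (Hp), which binds free haemoglobin, and hemopexin (Hpx), which binds haem, stood at 0.33 and 0.32. Ceruloplasmin (Cp), the copper carrier of plasma, stood at -0.17, and 7 of its 8 probe sets were lower in MSXH, the lowest at -0.93.

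Lcn2, which withholds iron from bacteria by binding their siderophores, had the widest spread of the 34 genes. It ran from 6.436 over 6.477 to 6.577 in HFD and from 6.442 over 6.481 to 6.571 in MSXH. A single HFD mouse, HFD 9, and a single MSXH mouse, MSXH 7, stood at the top, while the medians were close, and 17 of the 20 levels lay under the median of their array. The groups differed by a standardized 0.16 (-0.72 to 1.04).

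Crp, the pentraxin used as a clinical marker in people and known as a weak acute phase protein in mice, had distances from -1.46 over 0.01 to 1.66 in HFD. In MSXH they ran from -2.04 over -0.48 to 1.04. Its difference was -0.50 (-1.38 to 0.40; limma p 0.272). The other pentraxin, serum amyloid P (Apcs), stood at 0.04. The inter-alpha-trypsin inhibitor heavy chains, which bind hyaluronan, stood between -0.08 (Itih1) and 0.34 (Itih4), with Itih3 at 0.01 and Itih2 at 0.10. The protease inhibitor Serpina3n stood at -0.08 and, after quantile normalization, at -1.05 (p 0.0244), and Lbp, which hands bacterial lipopolysaccharide to CD14, at 0.13.

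Among the cytokines, Tnf and Il1b were lower in MSXH. Tnf (1419607_at), which starts NF-kB signalling, had the lowest difference. Its distances ran from -1.63 over 0.15 to 0.95 in HFD and from -3.27 over -1.01 to 0.29 in MSXH. The lowest mouse was MSXH 5, the 4 highest were HFD mice, and the groups overlapped. The standardized difference was -0.95 (-1.87 to -0.01) with a limma p of 0.0440 and an adjusted p of 0.443, and MSXH was higher in 25 of 100 pairs. The rank sum p was 0.0630. All 20 levels lay under the median of their array, so whether the probe set read expressed Tnf was not tested. Leaving out 1 mouse moved the difference from -1.20 (without HFD 4) to -0.82 (without MSXH 5), and the unadjusted p from 0.0161 to 0.0854.

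Il1b, the secreted interleukin-1 that drives acute phase genes with interleukin-6, had distances from -1.17 over -0.02 to 1.498 in HFD and from -1.80 over -0.91 to 1.68 in MSXH. In MSXH most mice stood below the HFD median, but MSXH 1 was the highest of all 20. Il1b had a standardized difference of -0.57 (-1.45 to 0.34; limma p 0.213), and -0.96 without MSXH 1. Its natural antagonist Il1rn ran from -0.72 over -0.11 to 1.03 in HFD and from -2.37 over 0.88 to 1.78 in MSXH. MSXH 4, a mouse with muscle transcripts, was far below the others. The Il1rn difference was 0.54 (-0.36 to 1.43; limma p 0.245) with all mice and 1.30 (p 0.0171) without MSXH 4 and 6. Under both scalings of all arrays it turned negative, and without MSXH 4 and 6 it was -0.07 with quantile normalization and 0.11 with centring. On the deposited values 1 of the 3 Il1rn probe sets was lower. Il6 itself stood at 0.10 and lay under the array median on all 20 arrays.

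The chemokine Ccl2, which draws monocytes, had distances from -1.70 over 0.06 to 1.88 in HFD and from -0.56 over 0.44 to 1.11 in MSXH. Its standardized difference was 0.38 (-0.51 to 1.26; limma p 0.405). Cxcl1, which draws neutrophils, had distances on the probe set of highest level (1441855_x_at) from -1.84 over 0.04 to 1.25 in HFD and from -0.84 over 0.29 to 3.10 in MSXH. MSXH 8 was the highest mouse, and the difference was 0.67 (-0.24 to 1.56; limma p 0.146, adjusted 0.608).

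The other Cxcl1 probe sets gave larger differences than the one chosen by level. On 1457644_s_at the distances ran from -1.19 over 0.02 to 1.23 in HFD and from -0.08 over 1.59 to 4.66 in MSXH, and MSXH was higher in 92 of 100 pairs. On 1419209_at they ran from -1.04 over 0.04 to 0.70 and from 0.08 over 1.61 to 3.87, with MSXH higher in 86 pairs. MSXH 8 was again the highest mouse on both, and the groups overlapped on both. The standardized differences were 1.67 (0.62 to 2.68) and 1.60 (0.57 to 2.60), with limma p of 0.00122 and 0.00172 over all probe sets and adjusted p of 0.215 and 0.22. Leaving out any 1 mouse gave p of at most 0.00276 and 0.00384. Both stayed positive under centring (0.51 and 0.82) and quantile normalization (0.25 and 0.92), under which the probe set of highest level turned to -0.59 and -0.30. All 20 levels of 1419209_at lay under the array median. The 3 probe sets went together across mice only in part, with r of 0.51 and 0.45 against the first. The mean of the 3 probe sets gave a difference of 1.72 (p 9.59e-04). These probe sets were singled out after their values were seen.

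On their probe sets of highest level, the receptor genes had differences between -0.08 and 0.50. Il6ra, the interleukin-6 receptor, ran from 8.588 over 8.598 to 8.600 in HFD and from 8.585 over 8.597 to 8.601 in MSXH, and its difference was -0.05 (-0.92 to 0.83). Il1r1, the signalling receptor of interleukin-1, ran from 8.161 over 8.187 to 8.216 and from 8.161 over 8.185 to 8.203, with a difference of -0.08 (-0.96 to 0.80). The groups overlapped for both genes on these probe sets. The other Il6ra probe set stood at -0.91, with r of 0.44 across mice against the first. The other Il1r1 probe set stood at 0.33, with r of -0.16 against the first, so neither gene is settled by 1 probe set. Il6st, which encodes gp130, had distances from -1.06 over -0.37 to 1.84 in HFD and from -1.10 over 0.56 to 1.91 in MSXH. Its difference was 0.50 (-0.40 to 1.38; limma p 0.288), and 3 of its 4 probe sets were lower in MSXH.

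Among transcription factors and feedback genes, Nfkbia, which encodes IkB-alpha and is a target of the NF-kB it inhibits, had the smallest p of the 34. On its probe set of highest level (1420088_at) it ran from 11.28107 over 11.28142 to 11.28152 in HFD and from 11.28113 over 11.28127 to 11.28138 in MSXH. In distances this is from -2.72 over 0.42 to 1.25 and from -2.16 over -0.96 to 0.03. The highest MSXH mouse stood at the HFD mean, and HFD 5 was the lowest of all 20. The standardized difference was -1.004 (-1.93 to -0.06) with a limma p of 0.0340 and an adjusted p of 0.412. MSXH was higher in 21 of 100 pairs, and the rank sum p was 0.0288. Without HFD 5 the difference was -1.72 (p 0.00128), and without HFD 1 it was -0.88 (p 0.0655).

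All 5 Nfkbia probe sets were lower in MSXH, between -0.64 and -1.13, and 2 of them had an unadjusted p under 0.05. They measure the same RNA and are not replicates. Their levels went together across mice, with r of 0.83 to 0.94 against the first. With quantile normalization 1449731_s_at stood at 0.02 while the other 4 stayed negative, and with MSXH 4 and 6 also left out 3 of the 5 were positive. Of all 64 probe sets of the 34 genes, 6 had an unadjusted p under 0.05, against 10.7% of all probe sets. These were the 2 of Nfkbia, 2 of Cxcl1, 1 of Stat3 and that of Tnf.

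**Figure D2:**
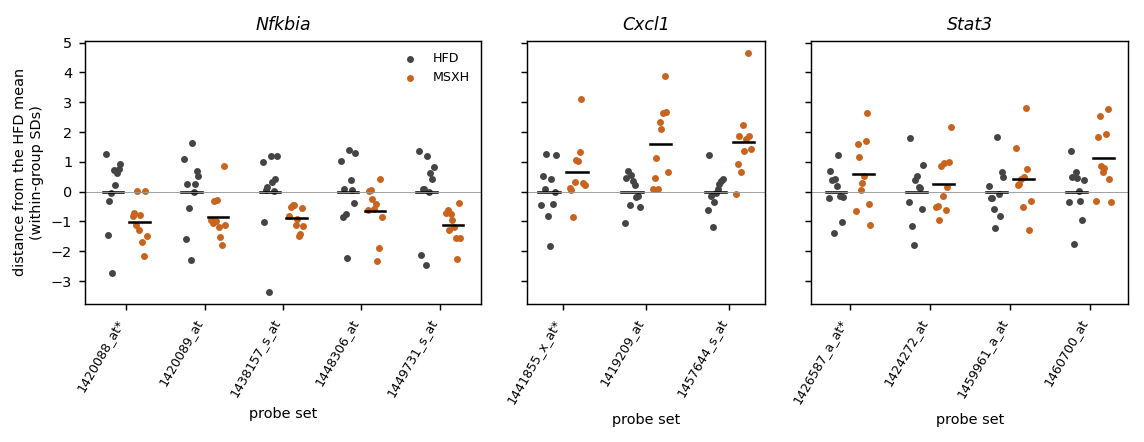
Distance of each mouse from the HFD mean (y axis, in SDs within groups) on every probe set of Nfkbia, Cxcl1 and Stat3 (x axis). Points are mice, bars are group means, and the asterisk marks the probe set of highest level. The bar of MSXH lies below that of HFD on 5 of 5 Nfkbia probe sets and above it on 3 of 3 for Cxcl1 and 4 of 4 for Stat3.

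Stat3, the transcription factor that interleukin-6 activates, had distances from -1.39 over 0.03 to 1.21 in HFD and from -1.12 over 0.41 to 2.64 in MSXH, with MSXH 8 the highest mouse. The standardized difference was 0.58 (-0.32 to 1.47; limma p 0.206). All 4 probe sets were higher, between 0.25 and 1.11, the largest on 1460700_at (limma p 0.0229 over all probe sets), and under centring all 4 turned lower. They did not all go together across mice. Against the probe set of highest level, r was 0.89 for 1460700_at, 0.26 for 1459961_a_at and -0.09 for 1424272_at. Socs3, a STAT3 target that blocks gp130 signalling, had distances from -1.77 over -0.13 to 2.47 in HFD and from -1.95 over -0.40 to 0.56 in MSXH. HFD 5 was far above every other mouse for Socs3. Its difference was -0.61 (-1.50 to 0.30; limma p 0.184), and -0.41 without HFD 5, and all 3 of its probe sets were lower.

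Cebpd, the inducible C/EBP of the acute phase, ran from 7.808 over 7.843 to 7.852 in HFD and from 7.802 over 7.832 to 7.850 in MSXH. The lowest mice were MSXH 9, MSXH 10, HFD 5 and HFD 3. Cebpd had a standardized difference of -0.57 (-1.46 to 0.33; limma p 0.207), and both of its probe sets were lower. Of the proteins that cells make in response, Steap4, a metalloreductase induced by interleukin-6 and TNF, stood at -0.24, and Icam1, an adhesion molecule and NF-kB target, at 0.35.

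Other genes of these pathways were taken from lists made by role. None passed an adjusted p of 0.05, as 0% of all genes did. For the counts that follow, 54.7% of all genes were higher in MSXH, 2.75% with centring and 7.14% with quantile normalization. Of 11 measured genes of the interleukin-6 family route, 8 were higher in MSXH (0 with centring and 1 with quantile normalization), and 2 were higher at an unadjusted p under 0.05, where 6.58% of all genes were. These were Pias3, an inhibitor of STAT3 binding to DNA, at 1.98 (limma p 2.51e-04, adjusted 0.163) and the kinase Jak1 at 0.93 (p 0.0493). Of 27 genes of the interleukin-1, TNF and NF-kB route, 18 were higher (0 with centring and 2 with quantile normalization). At an unadjusted p under 0.05, 5 were higher and 1 lower, against 6.58% and 4.31% of all genes. The smallest p belonged to the NF-kB subunit gene Nfkb2, at 1.57 (p 0.00277, adjusted 0.25), and to Tradd, the adaptor of the TNF receptor, at 1.49 (p 0.00325, adjusted 0.261). All 4 genes turned negative under both scalings of all arrays, and all 4 were positive without MSXH 4 and 6, also with either scaling.

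Of 12 further acute phase proteins that rise in inflammation, 10 were higher in MSXH (3 with centring), and of 7 that fall in it, 5 were higher (2 with centring). Of all genes 54.7% were higher, and 2.75% with centring. None of these proteins had an unadjusted p under 0.05, which 10.9% of all genes had. The smallest p in the first list belonged to Fgl1, a fibrinogen-like protein of hepatocytes, at -0.66 and to the fibrinogen chain Fga at 0.62, which turned negative with centring. In the second the smallest limma p belonged to the steroid carrier Serpina6 at 0.48 (p 0.290) and the thyroxine carrier Serpina7 at 0.46 (p 0.305). Differences in this second list ran from -0.66 to 0.82, so the smallest p did not mark the largest differences.

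Many of the 34 genes varied more between mice than most genes did, with a median SD within groups of 6.65e-05 against 1.19e-05 for all genes. On the deposited scale, 9 of 34 (26.5%) had an SD within groups above 0.001, against 560 of 18193 genes (3.08%), and 13 of 34 were among the 5% of genes with the largest SD. Above 0.001 were 5 of 19 secreted proteins and 4 of 15 signalling genes. Lcn2 had an SD of 0.0421, the 53rd largest of all genes, followed by Saa1 (0.0305), Saa2 (0.0260), Cebpd (0.0151), Il1r1 (0.0146) and Il6ra (0.00442). Cp, Il6, Il1rn, Ccl2 and Itih1 were at the other end, each with an SD under the median of all genes. The genes were listed for their role and with earlier results of these data known, and how far the compression of the scale sets these SDs was not tested.

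**Figure D3:**
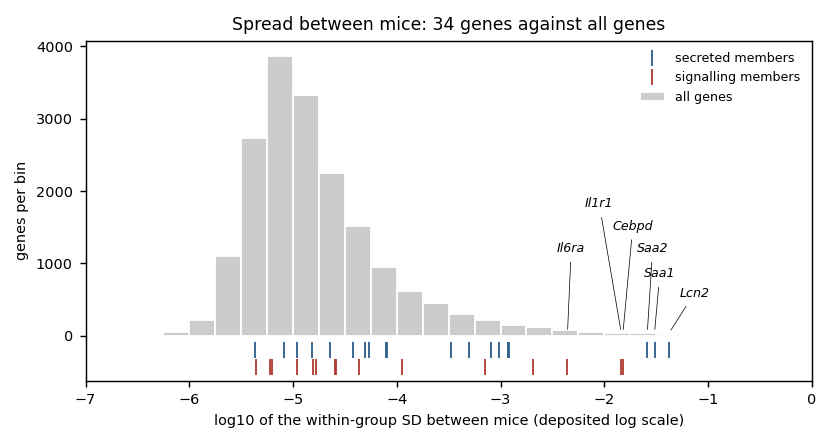
Histogram of the within-group SD between mice for 18193 genes (x axis, log10 of the SD on the deposited log scale; y axis, genes per bin). Ticks under the axis mark the 19 secreted and the 15 signalling genes. Lcn2, Saa1, Saa2, Cebpd, Il1r1 and Il6ra lie far to the right of the bulk of genes.

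The spread was not even over mice. MSXH 8 was the highest of the 20 mice for 6 of 19 secreted proteins and HFD 9 for 5, and MSXH 8 was among the top 3 for 12 of 19. MSXH 7 was among the top 3 for 8, HFD 9 for 7 and HFD 6 for 6. High mice were thus present in both groups. At the low end, MSXH 4 was the lowest for 3 secreted proteins and HFD 3 for 3. HFD 3, HFD 5, MSXH 9 and MSXH 10 were the 4 lowest mice for Serpina3n, for Il1r1 and for Cebpd alike. The mean of 9 hepatocyte markers was also lowest in these mice, in the same order -0.58, -1.26, -0.71 and -0.44. These means are in SDs within groups from the mean of all 20 mice, and the next lowest mouse, MSXH 1, stood at -0.10. The low levels are thus not particular to these 3 genes, and their cause was not tested.

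**Figure D4:**
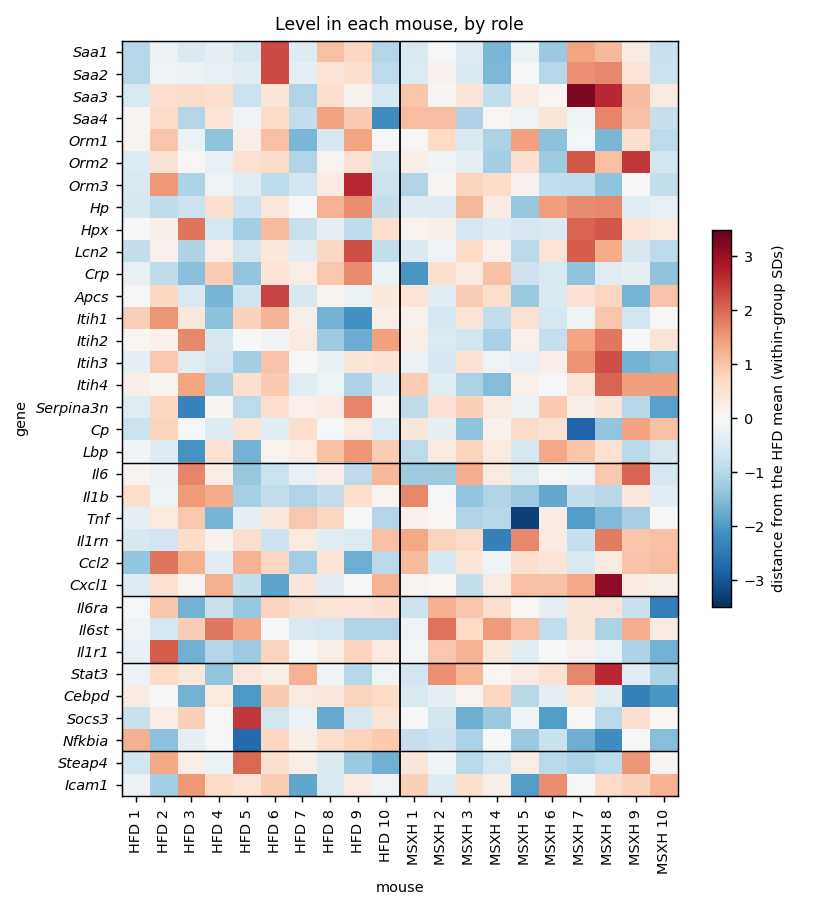
Distance from the HFD mean (colour, in SDs within groups) of each gene (y axis, ordered by role, with lines between roles) in each of the 20 mice (x axis, HFD left of the line, MSXH right). High levels of Saa1, Saa2 and Lcn2 appear in single mice of both groups, such as HFD 6, HFD 9, MSXH 7 and MSXH 8.

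Pairs of genes linked by role, 14 in all, were tested for going together across the 20 mice with the group means removed, by 100000 permutations and the Benjamini-Hochberg adjustment over the 14 pairs. Saa1 and Saa2 went together most closely, with Pearson's r of 0.98 and Spearman's rho of 0.95 (p 1e-05 each, the smallest these permutations can give; adjusted 1.4e-04). They shared r of 0.98 in HFD and 0.99 in MSXH, and 0.96 without the farthest mice, HFD 6 and MSXH 7. The probe sets can bind both transcripts, and how far they read the same RNA was not tested. Saa1 and Orm2 had r of 0.70 and rho of 0.80 (adjusted permutation p 0.00399 and 6.3e-04). The r was 0.67 without HFD 6 and MSXH 7, 0.58 within HFD, 0.85 within MSXH and 0.61 without MSXH 4 and 6.

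A further 3 pairs passed with Pearson's r and not with Spearman's rho. Saa1 and Lcn2 had r of 0.58 and rho of 0.54 (adjusted permutation p 0.0237 and 0.0541), and r was 0.53 without HFD 6 and MSXH 7. The adjusted p was 0.0504 without HFD 5 and 0.0962 without MSXH 7. Steap4 and Socs3 had r of 0.62 and rho of 0.52 (adjusted 0.0153 and 0.0573). This relation rests on HFD 5 and MSXH 9, without which r was 0.33, and the adjusted p was 0.111 without HFD 5 alone. Saa3 and Lcn2 had r of 0.55 and rho of 0.37 (adjusted 0.0382 and 0.254). This relation rests on MSXH 7 and MSXH 8, without which r was 0.23, and it did not pass when any of 8 single mice was left out (HFD 1, 5, 8 and 10 and MSXH 5, 7, 8 and 10), with an adjusted p of up to 0.258.

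The other 9 pairs did not pass on the deposited values. Orm1 and Orm2 had r of 0.50 (adjusted permutation p 0.0580), and Saa1 and Hp had r of 0.46 (0.0817), which was 0.64 (0.0133) without MSXH 4 and 6 and 0.58 (0.0247) without MSXH 6. Orm1 and Orm2 had r of 0.55 (0.0400) without MSXH 2 and 0.60 (0.0211) without MSXH 8. Over 27 alternatives their r ran from as low as 0.15 to 0.81, with an adjusted permutation p of up to 0.596. Saa1 had r of 0.27 with Serpina3n, 0.20 with Il1r1 and -0.11 with Socs3. Stat3 had r of -0.07 with its target Socs3 and 0.18 with Cebpd. The receptor chains Il6ra and Il6st had r of -0.24, with -0.82 in HFD and 0.28 in MSXH, and Icam1 had r of 0.01 with Nfkbia. Scaling the arrays moved some of these values. With centring, Icam1 and Nfkbia had r of 0.89 (adjusted permutation p 7e-05), Orm1 and Orm2 0.81 (2.8e-04) and Saa1 and Hp 0.54 (0.0338), and with quantile normalization Orm1 and Orm2 had 0.69 (0.00877). Without MSXH 4 and 6, centring gave r of 0.40 (0.117) for Icam1 and Nfkbia and 0.43 (0.102) for Orm1 and Orm2, and it gave 0.56 (0.0367) for Il6ra and Il6st.

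**Figure D5:**
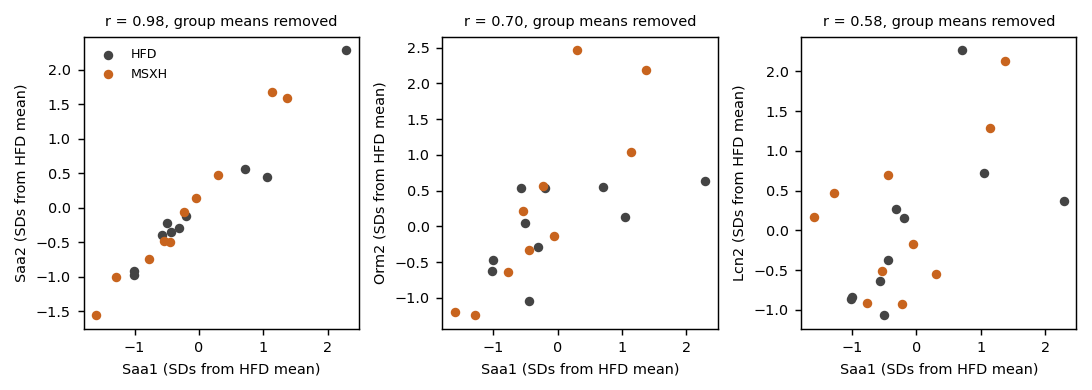
Distance from the HFD mean of Saa1 (x axis) against Saa2, Orm2 and Lcn2 (y axes), all in SDs within groups, with 1 point per mouse coloured by group. Saa2 lies close to a line (r 0.98), while Orm2 (0.70) and Lcn2 (0.58) scatter around it, with high mice from both groups.

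The labelled tissue was checked on 9 hepatocyte markers, among them Alb and Hnf4a, each of which lay above the median of all 20 arrays. Of these 4 were higher in MSXH, and 0 with centring. For this and the marker counts below, the share of all genes was 54.7%, and 2.75% with centring. The 12 macrophage markers had 9 higher (2 with centring) and a summed level of 97.40 to 97.42 in HFD and 97.40 to 97.43 in MSXH. Of the 8 neutrophil markers 5 were higher (1 with centring), with a summed level of 51.747 to 51.748 and 51.747 to 51.750, and S100a8, S100a9, Mpo, Cxcr2 and Camp lay under the median of all 20 arrays. Endothelial markers were higher for 2 of 8, stellate and fibroblast markers for 6 of 8, lymphocyte markers for 5 of 7 and adipocyte markers for 2 of 5. With centring these counts were 0, 2, 0 and 2. Muscle markers were higher for 11 of 12 (10 with centring), with a summed level of 76.4 to 77.2 in HFD and 76.4 to 98.2 in MSXH. Without MSXH 4 and 6 the counts higher were 4 hepatocyte, 10 macrophage, 5 neutrophil and 3 endothelial markers. For stellate and fibroblast markers the count was then 3, for lymphocyte 5, for adipocyte 0 and for muscle 7, against 54.6% of all genes. Whether these cells had a part in the differences of Saa3, Cxcl1, Tnf or Nfkbia was not tested.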

How the data were processed

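Per the labels' protocols, liver RNA of 20 mice was amplified, labelled with biotin and hybridised to Affymetrix 3' arrays. The deposited values are on a log scale, taken as log2 from their range, and how the authors scanned, corrected and normalized them, like the log base, is not stated. The values were not changed before the tests. Of 45101 probe sets, 34945 had 1 symbol in the platform's gene table, 932 had several, 9160 were not listed and 64 were controls, and only the first were used. The gene IDs of all 34 genes were found in the GRCm38.p6 table, which changed 0 symbols. Of several probe sets the one with the highest mean level stood for the gene, with no filter on level.

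Groups were compared with limma 3.58.1 in R 4.3.3 (lmFit on 2 group means, eBayes with trend, two-sided; 18 residual and 0.704 prior degrees of freedom), with Benjamini-Hochberg over 18193 genes at 0.05. Intervals of standardized differences are noncentral t intervals at 95%. Relations were computed in Python 3.11.15 with numpy 2.4.6 and scipy 1.17.1, and figures with matplotlib 3.10.9. The limma fit and the permutation test of r were tried on simulated data first, and the other tests were not. Replicate numbers only name mice. Precision is limited by the 20 arrays.

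The genes, lists, pairs, tests and alternatives were chosen with earlier results of these data known. Values by mouse are given for the 12 genes of smallest p and the 6 of largest SD, and 2 genes are named from each pathway list by smallest p. Promoters are printed for the genes in relations past the threshold. Proteins are not shown. The list of 34 genes holds whole families, so paralogs may share probes. Alternatives were centring or quantile normalization of arrays, a filter at the level of the median gene, a replicate block, other rules for probe sets, other variance models, array weights, the rank sum test, Spearman's rho, and leaving out each mouse or MSXH 4 and 6.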

Additional observations from a re-analysis of the deposited data

Results flagged for a closer look

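In the HFD group, the Saa2 level of HFD 6 lay far above the other 9 mice: its gap to the nearest of them was 0.528 of the whole range of the group. The same mouse was the highest of all 20 for Saa1 and for Apcs. This was the only one of 68 groups tested (34 genes in each of 2 groups) that stood apart in this way, and chance alone gives such a gap in about 1 of 20 groups. Without HFD 6 the standardized difference of Saa2 was 0.24 in place of -0.05.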

How the results depend on the processing

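Across all alternatives, 0 of the 34 genes passed an adjusted p of 0.05. Of all genes, 1 passed with the mean of the probe sets of a gene and 4 with the rank sum test, against 0 as reported, and 0 to 3 when 1 mouse was left out. Genes of the 34 at an unadjusted p under 0.05 numbered 2 as reported (10.9% of all genes). They numbered 1 with quantile normalization (4.11% of all genes), with centring (1.15%) and with the rank sum test (9.33%). There was also 1 among genes above the median gene (986 of all 9096 such genes) and with array weights (1961 of all 18193 genes). The mean of the probe sets and the most variable probe set each gave 3 (Cxcl1 added, higher), against 1997 and 2110 of all 18193 genes. Without MSXH 4 and 6 there were 4 (10.3%). When 1 mouse was left out there were 0 to 3, against 1667 to 2221 of all 18193 genes. When all probe sets were fitted, 6 of 64 probe sets, from 4 genes, were under it, against 10.7% of all probe sets. With a replicate block the number was 1, Nfkbia (limma p 0.0404), against 1816 of all 18193 genes. Replicate numbers do not pair the mice: the correlation of mice with the same number ran from -0.265 to 0.165, and 1 of 10 correlated best with its own number.

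Secreted proteins higher in MSXH numbered 11 of 19 as reported, 3 of 14 with quantile normalization, 3 of 19 with centring and 8 to 14 when 1 mouse was left out. The shares of all genes were 54.7%, 7.14%, 2.75% and 53.8% to 55.3%. Signalling genes numbered 7 of 15, 0 with either scaling, and 6 to 9 when 1 mouse was left out, beside the same shares of all genes. When all probe sets were fitted, 14 signalling probe sets were higher, where 53% of all probe sets were. Genes with several probe sets count more than once there, so the 14 cannot be set against the 7 of 15. Centring takes 1 amount off every gene of an array, and MSXH 4 and 6 had the highest array medians (6.52255 and 6.52235, against at most 6.52172). After quantile normalization 5 of the 34 had no value. Relations past the threshold numbered 5, 2 with Spearman's rho, 8 with centring and 2 to 6 when 1 mouse was left out. The cause of the other changes was not tested.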

Other observations

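Some pairs outside the 14 tested went together more closely than most of those. They were picked from all 561 pairs of the 34 genes after their values were seen, and are given as a description over the same 20 mice with the group means removed. Of these pairs 21 had r above 0.7 and 3 below -0.7, around a median of 0.06. The share among pairs of all genes is not given, so these counts do not say whether such values are unusual here. They rest on the deposited values, and scaling moved some of the 14 tested pairs. The receptors Il6ra and Il1r1 had r of 0.89 (0.92 in HFD and 0.89 in MSXH), and haptoglobin and lipocalin 2 (Hp and Lcn2) had r of 0.89 (0.87 and 0.90).

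Several high values of r involved Cebpd, Serpina3n and Lbp. Serpina3n had r of 0.83 with Lbp, 0.83 with Il6ra, 0.80 with Il1r1 and 0.78 with Cebpd, and Lbp had r of 0.81 with Cebpd. Serpina3n, Il1r1 and Cebpd were lowest in the same mice as the hepatocyte markers, and whether that underlies these values was not tested. Socs3 and Steap4 had negative r with some of these genes. Lbp had r of -0.78 with Steap4 and -0.73 with Socs3, and Cebpd had r of -0.71 with Socs3. The serum amyloids Saa1 and Saa2 had r of 0.72 and 0.75 with Saa3, which were 0.92 and 0.92 within MSXH and 0.49 and 0.47 within HFD, and the difference between the groups was not tested.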
